A study of Bos taurus with 12 samples.

Results

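The endothelin ligand EDN1, its receptors EDNRA and EDNRB, and CDH13, which encodes T-cadherin, were followed in the rumen wall of dairy cows moved from forage to grain. The members were taken as every probe set whose only gene symbol in the array's annotation was one of these names, which gave 4 probe sets, 1 for each gene, of 9155 genes named on the array and 24016 probe sets other than controls. The genes were picked with their values on all 12 arrays known, so their values are a description and carry no test. The symbols in the current gene table were the same 4 names.

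Endothelin 1, the product of EDN1, is a short peptide secreted by endothelial and epithelial cells and one of the strongest vasoconstrictors known. It is cut from a longer precursor by furin-like proteases and then by the endothelin-converting enzymes, and it acts on a pair of G protein-coupled receptors. EDNRA, on smooth muscle, drives contraction, while EDNRB, on endothelium and on cells of neural crest origin, mediates relaxation and clears the peptide. CDH13 encodes T-cadherin, an atypical cadherin that lacks a cytoplasmic part, is held in the membrane by a glycosylphosphatidylinositol anchor and binds adiponectin. It is found on endothelium, smooth muscle and the basal layer of stratified epithelia. A rumen papilla is a vascular core covered by such an epithelium.

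The tissue was papillae of the ventral sac of the rumen from 4 Holstein dairy cows. Week 0 was sampled on a high forage diet, labelled as the control, and weeks 1 and 3 were sampled in the first and the third week of a grain challenge, with the same 4 cows each time and 4 arrays a week. Ages, other treatments and the composition of the diets are not given in the sources used here. Diet and calendar week coincided, and no cow kept on forage throughout was among the samples, so diet and time cannot be told apart.

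Values are log2 differences from the median of the same probe set over the 12 arrays. They show how arrays differ and hold no absolute level, so levels of different genes cannot be compared and the presence of a tissue marker could not be checked. Depth does not apply to arrays, and their number limits the precision. The mean of 18 hybridization control probe sets stood at 0.49 and 0.48 for cow 1 (weeks 0 and 1) and at 0.72 for cow 2 (week 0). The remaining 9 arrays lay between -0.32 and 0.055. Array medians lay between -0.051 (week 1 of cow 1) and 0.054 (week 1 of cow 2). In a linear model of the weekly means fitted with limma, no probe set had a Benjamini-Hochberg adjusted p under 0.05 in any of the 3 comparisons. At an unadjusted p under 0.05 there were 1237 probe sets for week 1 against week 0, 933 for week 3 against week 0 and 1172 for week 3 against week 1. Once the model took the cow as a block, the adjusted calls were 2 (0.00833% of probe sets), 0 and 0, and the unadjusted counts 1828, 1469 and 1821.

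EDN1 was lower on grain than on forage in each of the 4 cows, and cow 2 was far below the other cows at every week. On forage EDN1 was at 1.03, -1.26, 1.15 and 1.08 in cows 1 to 4. In the first week of grain it was at 0.29, -2.91, -0.60 and 0.15, and in the third week at -0.45, -2.94, 0.048 and -0.048. Apart from cow 2, every forage array was above every grain array, but the groups overlapped because the forage array of cow 2 was below the grain arrays of the other cows. Cow 2 was set aside after its values were seen. The share of all probe sets that separate with a cow set aside was not counted, so nothing is read from this separation. The weekly means were 0.50 ± 1.17, -0.77 ± 1.48 and -0.85 ± 1.41 (SD, n = 4). The order was week 0, week 1, week 3. Within cows the step from week 0 to week 1, -1.27 with an SD of 0.51 over cows, was larger than that SD, and the step from week 1 to week 3, -0.081 with an SD of 0.57, was not. Without cow 2 the means were 1.09 ± 0.060, -0.051 ± 0.48 and -0.15 ± 0.26 (SD, n = 3). The step from week 0 to week 1 was then larger than these SDs, and the one from week 1 to week 3 was not.

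Within cows, EDN1 in week 1 differed from week 0 by -0.74, -1.65, -1.75 and -0.93, with a mean of -1.27 ± 0.90 (SE, n = 4 cows), or 2.40-fold lower. In week 3 it differed from week 0 by -1.48, -1.68, -1.10 and -1.13, with a mean of -1.35 ± 0.90 (SE, n = 4 cows), or 2.54-fold lower. These SEs, like every SE given here with n = 4 cows, are of the model of weekly means and do not use the pairing by cow. The SE of EDN1 was 0.21 in both comparisons once the cow was a block, since most of its spread lay between cows. Being lower in all 4 cows was the case for 3.39% of all probe sets in week 1 and 4.63% in week 3. Only 25 probe sets of 24016 had a lower difference than EDN1 in week 1, and 4 in week 3, values that were known when the gene was chosen. From week 1 to week 3 EDN1 differed by -0.74, -0.028, 0.65 and -0.20, so that cow 1 was lower, cow 3 was higher and the mean was -0.081 ± 0.90 (SE, n = 4 cows). In bulk tissue, fewer cells of a type that makes a transcript and less transcript per cell cannot be told apart. This holds for every value given here.

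The difference between cow 2 and the other cows was larger than the difference between diets. EDN1 in cow 2 was 5.08-fold below the mean of the other 3 cows at week 0, 7.27-fold below at week 1 and 6.93-fold below at week 3. Of its variance over the 12 arrays, 75.4% lay between cows and 21.4% between weeks, against medians of 31.3% and 15.2% over 14409 probe sets, those outside the 40% that varied least. The 3 arrays of cow 2 were below all 9 others for EDN1, as for 0.966% of all probe sets. Cow 2 was not apart in CDH13, where its mean of 0.075 lay between those of cows 1 and 3, at 0.41 and -0.076. Because of cow 2, the difference of weekly means moved when 1 of its arrays was left out. Without its week 1 array EDN1 was at -0.55 in week 1 against week 0, and without its week 0 array at -1.85. In week 3 against week 0 it was at -0.65 without the week 3 array of cow 2 and at -1.93 without its week 0 array.

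CDH13 was lower on grain than on forage in all 4 cows, and here the groups did not overlap. On forage T-cadherin transcript was at 0.79, 0.53, 0.45 and 0.44 in cows 1 to 4. In the first week of grain it was at 0.34, -0.21, -0.40 and -0.18, and in the third week at 0.10, -0.10, -0.28 and -0.53. Each of the 8 grain arrays was thus below each of the 4 forage arrays, and cow 1 was the highest in every week. The weekly means were 0.55 ± 0.16, -0.11 ± 0.32 and -0.20 ± 0.27 (SD, n = 4). Weeks 1 and 3 are neighbours in this order that did not differ beyond their SD, and week 0 stood above both by more than the SDs.

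The difference of CDH13 between week 1 and week 0 was -0.44, -0.74, -0.85 and -0.62 in cows 1 to 4, with a mean of -0.66 ± 0.17 (SE, n = 4 cows), or 1.59-fold lower. Between week 3 and week 0 it was -0.69, -0.63, -0.73 and -0.97, with a mean of -0.75 ± 0.17 (SE, n = 4 cows), or 1.69-fold lower. With the cow as a block the SE was 0.089 in both comparisons. Of all probe sets, 2.69% did not overlap between weeks 0 and 1 and 3.48% between weeks 0 and 3, in either direction. From week 1 to week 3 the sign was mixed, at -0.24, 0.11, 0.13 and -0.35, with a mean of -0.089 ± 0.17 (SE, n = 4 cows). Weeks took up 69.4% of the variance of CDH13 and cows 24.9%, the reverse of EDN1. Leaving out any 1 array or 1 cow gave -0.82 to -0.57 for week 1 against week 0 and -0.85 to -0.64 for week 3 against week 0.

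**Figure D1:**
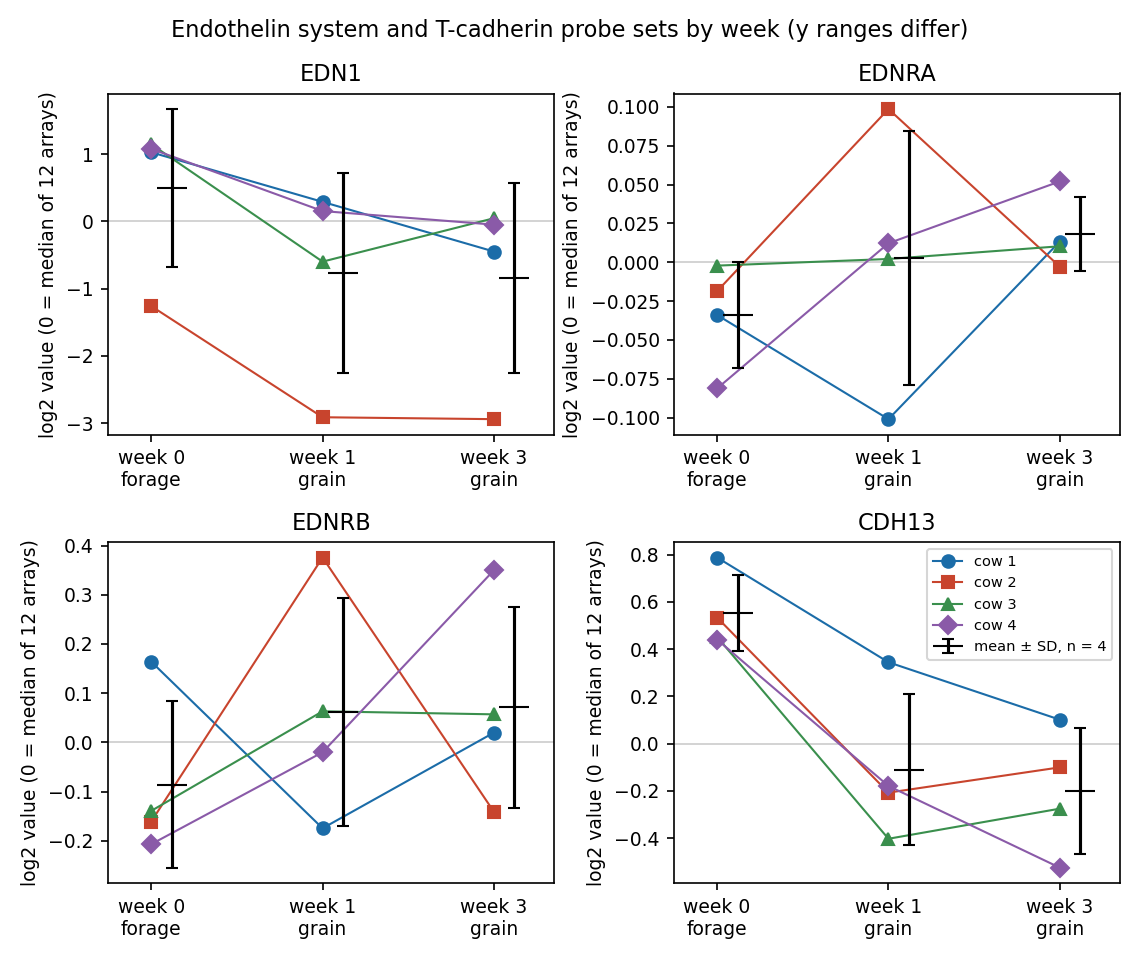
Log2 value of EDN1, EDNRA, EDNRB and CDH13 in each cow (coloured lines) at weeks 0, 1 and 3, with the mean and SD of the 4 cows in black; 0 is the median of the 12 arrays, the y ranges differ between genes and the weeks are evenly spaced. EDN1 and CDH13 are highest on forage in every cow, cow 2 is low for EDN1 throughout, and the receptors cross between cows.

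The receptors did not follow their ligand. EDNRA, the contractile receptor, was nearly flat, with a range of 0.20 over the 12 arrays and an SD above that of 25.9% of probe sets. On forage it was at -0.034, -0.019, -0.0021 and -0.081 in cows 1 to 4, in week 1 at -0.10, 0.099, 0.0021 and 0.012, and in week 3 at 0.013, -0.0028, 0.010 and 0.052. The groups overlapped at every week, with means of -0.034 ± 0.034, 0.0030 ± 0.082 and 0.018 ± 0.024 (SD, n = 4). The order of the means was week 3, week 1, week 0, and no neighbours differed beyond their SD. EDNRA differed by 0.037 ± 0.040 (SE, n = 4 cows) in week 1 against week 0, by 0.052 ± 0.040 in week 3 against week 0 and by 0.015 ± 0.040 in week 3 against week 1. A flat centred value does not show whether the receptor was expressed.

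EDNRA was higher in week 3 than in week 0 in all 4 cows, by 0.012 to 0.13, but so were 36.3% of all probe sets. With each array centred on its median this held for 12.8% of probe sets, and EDNRA was then higher in 2 cows and lower in 2. The highest and the lowest array of EDNRA, weeks 1 of cows 2 and 1, were also those of the highest and the lowest array median. Over the 12 arrays its Pearson r with the array median was 0.78 and its Spearman correlation 0.73, against 0.42 and 0.48 for EDNRB, -0.49 and -0.38 for EDN1 and -0.46 and -0.40 for CDH13. These 12 arrays come from 4 cows and are not independent. The part of the array median in the values of EDNRA was not tested.

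EDNRB, the receptor that relaxes vessels and clears the peptide, varied more than EDNRA, and in different directions in different cows. On forage it was at 0.16, -0.16, -0.14 and -0.21 in cows 1 to 4, in week 1 at -0.17, 0.38, 0.063 and -0.020, and in week 3 at 0.020, -0.14, 0.057 and 0.35. The highest array was on forage in cow 1, in week 1 in cows 2 and 3 and in week 3 in cow 4. The means were -0.086 ± 0.17, 0.061 ± 0.23 and 0.071 ± 0.20 (SD, n = 4), in the order week 3, week 1, week 0 with no neighbours beyond their SD. EDNRB was higher than on forage in 3 of 4 cows at each grain week, by means of 0.15 ± 0.14 and 0.16 ± 0.14 (SE, n = 4 cows), and cow 1 was lower both times, by -0.34 and -0.14. Cows took up 0.942% of its variance and weeks 14.2%, so that 84.8% was in neither. Between weeks 1 and 3 it was higher in 2 cows and lower in 2, with a mean of 0.010 ± 0.14 (SE, n = 4 cows).

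**Figure D2:**
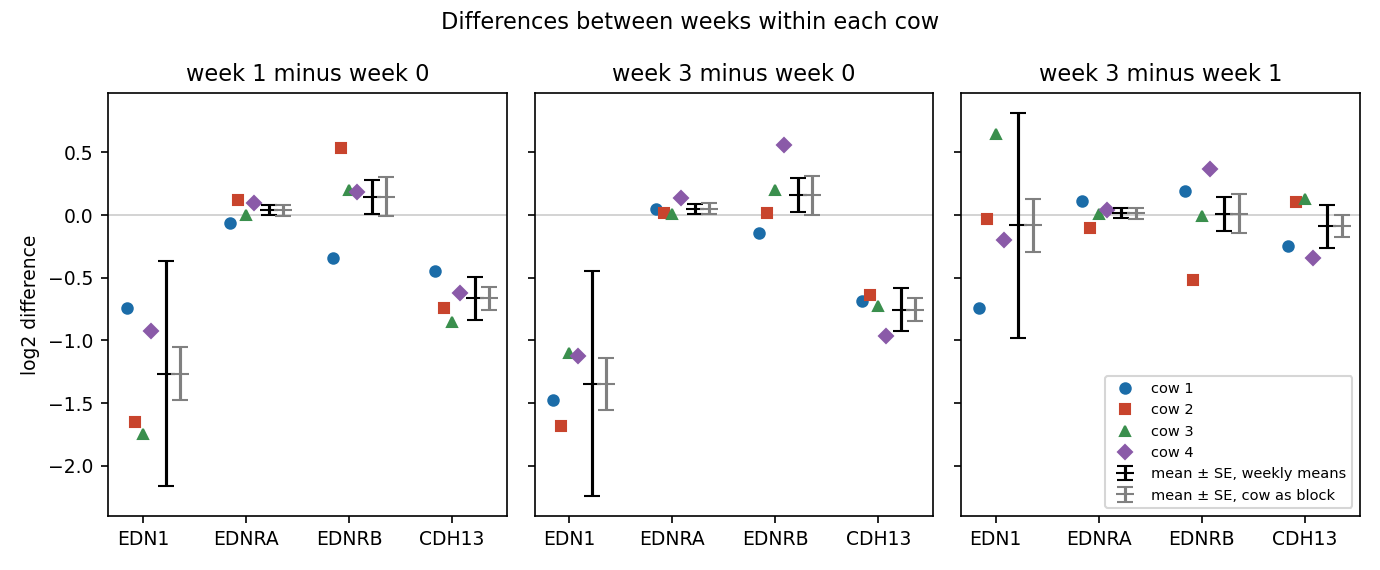
Log2 difference between weeks within each cow (coloured points) for the 4 genes in the 3 comparisons, with the mean and its SE from the model of weekly means (black) and from the model with the cow as a block (grey). EDN1 and CDH13 lie below 0 in all 4 cows against week 0 and around 0 between weeks 1 and 3, and the SE of EDN1 is 0.90 without the block and 0.21 with it.

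None of the 4 members was called at an adjusted p under 0.05 in any comparison (limma), against 0% of all probe sets. At an unadjusted p under 0.05, CDH13 was the only member past the threshold in week 1 and in week 3 against week 0, against 5.15% and 3.88% of all probe sets, and no member was past it between weeks 1 and 3, against 4.88%. With the cow as a block EDN1 was past it too in both comparisons with week 0, against 7.61% and 6.12% of all probe sets, and no member was past it between weeks 1 and 3, against 7.58%. With the cow as a random block, for which the estimated correlation over all probe sets was 0.026, EDN1 was not past it in either comparison and its SE was 0.86. That setting gives every probe set the same correlation, while 75.4% of the variance of EDN1 lay between cows. It therefore makes little use of the pairing of EDN1. With array weights CDH13 was called at an adjusted p under 0.05 in week 1 against week 0, as were 41.5% of all probe sets. The members were chosen with these contrasts known, so nothing is read from the counts. The 3 comparisons share arrays, week 0 serving in 2 of them.

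EDN1 and CDH13 shared a course within cows. Both were at their highest on forage in 4 of 4 cows, as 0.829% of all probe sets were, and neither had a common lowest week: for EDN1 it was week 3 in 3 cows and week 1 in cow 3, and for CDH13 each grain week in 2 cows. Over the 12 arrays their Pearson r was 0.41 (Spearman correlation 0.43), and it was 0.95 after the mean of each cow was taken off. Both genes were chosen with these values known, so the value is a description. The receptors had an r of 0.77 with each other (Spearman 0.73) and 0.86 within cows, and values of EDNRA with EDN1 and CDH13 were -0.54 and -0.63. These are descriptions over arrays that share 4 cows and 1 normalization, and the part of the array median in the r between the receptors was not tested.

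**Figure D3:**
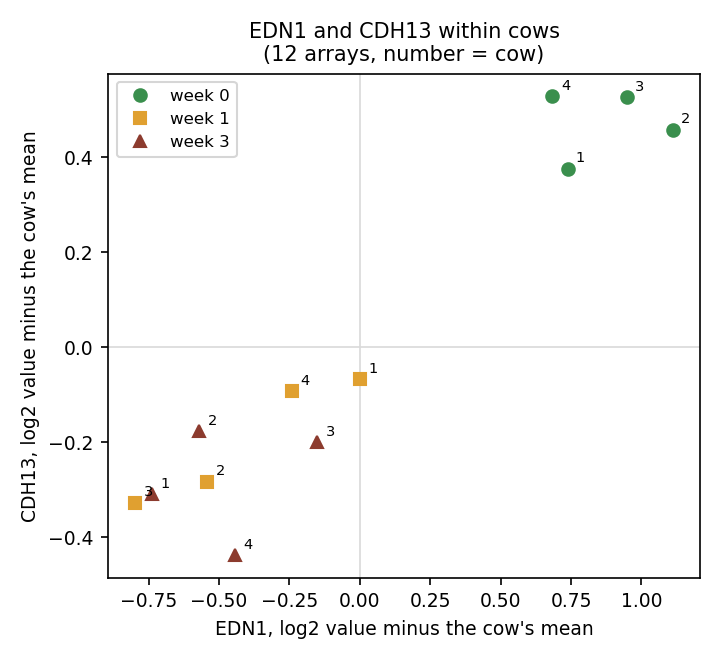
EDN1 against CDH13 on the 12 arrays, each as the log2 value minus the mean of that cow, with the cow number beside each point and the week as colour and shape. The 4 forage arrays lie apart at the upper right and the arrays of weeks 1 and 3 mix at the lower left (Pearson r of 0.95, a description with no test, since the genes were chosen with these values known).

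The genes most like each member were sought among 1 probe set of each named gene, leaving out the 40% of probe sets that varied least, by Pearson r over the 12 arrays. For EDN1, among 6597 genes, they were LY6G6C (r of 0.92), the protease inhibitor SERPINB6 (0.89), the sulfotransferase SULT1A1 (0.89), HSD11B2, which inactivates cortisol (0.88), and the cell cycle inhibitor CDKN1A (0.87). Within cows CDKN1A had the highest r of the 5, 0.90, and SULT1A1 the lowest, 0.60. HSD11B2 was at -0.96 in week 1 and -0.88 in week 3 against week 0, and CDKN1A at -0.28 and -0.30. For CDH13 they were ACAA1, a peroxisomal thiolase (r of 0.84), ERGIC3, of the secretory pathway (0.82), the laminin chain LAMB3 (0.82), the Golgi mannosidase MAN1A1 (0.81) and ARHGAP10, a GTPase-activating protein (0.81). LAMB3, part of the basement membrane under basal cells, was at -0.94 in week 1 and -1.20 in week 3 against week 0, and ARHGAP10 at -0.91 and -0.72.

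The receptors had other neighbours. For EDNRA they were CORO6 (r of 0.94), RGCC (0.88), CFAP141 (0.87), the carboxypeptidase CPN1 (0.87) and the glycerol channel AQP7 (0.87), among 6598 genes. For EDNRB they were PRAF2 (0.79), BCAS4 (0.78), RGCC (0.76), the exosome nuclease DIS3 (0.75) and the transcription factor PAX8 (0.75). RGCC stood in both lists, and no gene stood in the lists of both a receptor and EDN1 or CDH13. These correlations are over arrays of 4 cows and have no p. EDNRA was nearly flat and had an r of 0.78 with the array median, and the part of the array median in these lists was not tested.

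Among the other ligands and the processing enzymes, 7 of the 12 listed genes were measured, and none was called in any comparison (limma). EDN3, a ligand that acts mainly through EDNRB, had the widest values. It was at -0.78, 0.29, -0.70 and 1.04 in cows 1 to 4 on forage, at -0.30, -1.44, -1.63 and 0.37 in week 1 and at 0.085, 0.78, -0.085 and 1.66 in week 3. The third week of grain was above the first in all 4 cows, by 0.38, 2.22, 1.54 and 1.29, though the groups overlapped, and so were 5.12% of all probe sets. The mean was 1.36 ± 0.57 (SE, n = 4 cows), 2.57-fold higher, with an unadjusted p of 0.0386 and an adjusted p of 0.994 (limma), or 0.281 with the cow as a block. Against week 0 it was at -0.71 ± 0.57 in week 1, lower in 3 of 4 cows, and at 0.65 ± 0.57 in week 3, higher in 4 of 4 (adjusted p of 0.763 and 0.901, limma). In week 3 against week 0, 36.3% of all probe sets were higher in all 4 cows. EDN2, the third ligand, was nearly flat at 0.017 ± 0.033, -0.019 ± 0.033 and -0.036 ± 0.033 (SE, n = 4 cows) in week 1 against 0, week 3 against 0 and week 3 against 1.

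ECE1 is the converting enzyme that releases active endothelin 1. It was lower than on forage in all 4 cows at both grain weeks, as were 3.39% and 4.63% of all probe sets. The means of ECE1 were -0.18 ± 0.13 and -0.23 ± 0.13 (SE, n = 4 cows; limma, adjusted p of 0.763 and 0.901). Of its 3 probe sets the other 2 had the opposite sign in both comparisons. Its relative ECE2 was at -0.036 ± 0.056 and -0.067 ± 0.056. FURIN, a protease that cuts the precursor, was at -0.18 ± 0.11 in week 1 and 0.063 ± 0.11 in week 3, when its 2 probe sets disagreed in sign. The related protease PCSK7 was at 0.033 ± 0.22 and 0.13 ± 0.22, and MME, a neutral endopeptidase that degrades endothelin, at 0.036 ± 0.040 and 0.018 ± 0.040. From week 1 to week 3, ECE1, ECE2, FURIN, PCSK7 and MME were at -0.057, -0.032, 0.24, 0.092 and -0.018. The 7 genes had medians of -0.036, 0.018 and -0.018 in week 1 against 0, week 3 against 0 and week 3 against 1, beside 0.024, 0.017 and -0.0078 for all 9155 named genes.

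Of the 13 listed partners and ligands of T-cadherin 10 were measured, and none was called in any comparison (limma). ADIPOQ, adiponectin itself, was at 0.023 ± 0.034, 0.013 ± 0.034 and -0.010 ± 0.034 (SE, n = 4 cows) in week 1 against 0, week 3 against 0 and week 3 against 1. Its receptor ADIPOR1 was at -0.098 ± 0.073, 0.031 ± 0.073 and 0.13 ± 0.073. The other adiponectin receptor, ADIPOR2, was at 0.16 ± 0.10, -0.16 ± 0.10 and -0.31 ± 0.10, and the last of these had an unadjusted p of 0.0134 and an adjusted p of 0.806 (limma), being lower in 3 of 4 cows. PLAUR, the urokinase receptor, which like T-cadherin has a glycosylphosphatidylinositol anchor, was higher than on forage in all 4 cows at both grain weeks, at 0.57 ± 0.35 and 0.65 ± 0.35 (limma, adjusted p of 0.763 and 0.901). Of all probe sets 6.91% and 36.3% were higher in all 4 cows. GPLD1, a phospholipase that cuts such anchors, was at 0.048 ± 0.045, 0.053 ± 0.045 and 0.0058 ± 0.045.

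The remaining partners, which take part in signalling from the cell surface, were at small values. In week 1 against week 0 HSPA5, ITGB3, ILK, GSK3B and LRP5 were at -0.23, 0.074, -0.094, -0.035 and 0.078, and in week 3 against week 0 at 0.036, 0.043, 0.00095, -0.10 and 0.13. From week 1 to week 3 they were at 0.26, -0.031, 0.095, -0.069 and 0.055. HSPA5, a chaperone that also reaches the surface, was higher in week 3 than in week 1 in all 4 cows, as were 5.12% of all probe sets. In week 1 against week 0, 1 of its 3 probe sets had the opposite sign. So did 1 of the 3 of GSK3B in both comparisons with week 0, and the 2 of LRP5 disagreed from week 1 to week 3. The 10 genes had medians of 0.035, 0.033 and 0.030. PLAUR was at 0.086 ± 0.35 (SE, n = 4 cows) in week 3 against week 1, higher in 2 cows and lower in 2.

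**Figure D4:**
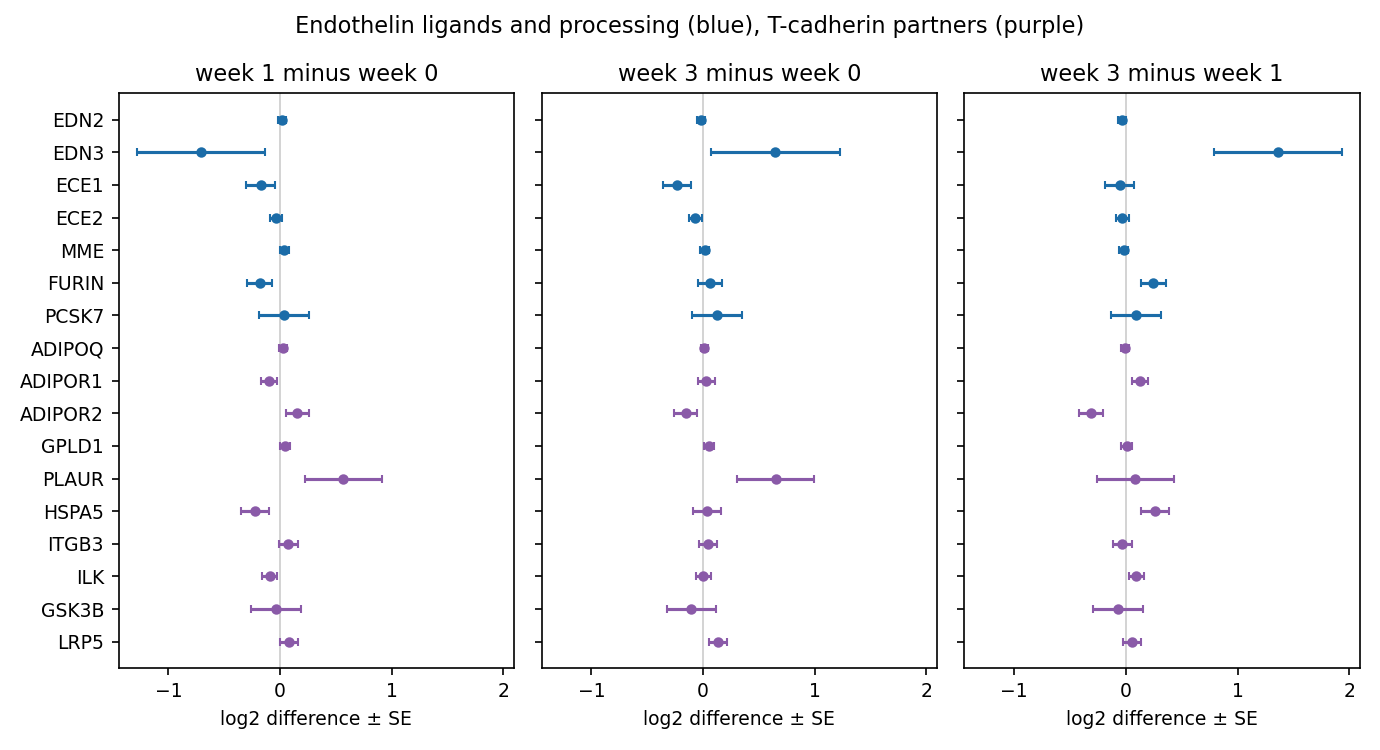
Log2 difference and SE (n = 4 cows, limma) of the 7 measured endothelin ligands and processing genes (blue) and the 10 measured T-cadherin partners (purple) in the 3 comparisons. EDN3 and PLAUR have the widest values, with EDN3 at 1.36 in week 3 against week 1, and no gene had an adjusted p under 0.05.

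Further along the pathway, none of the 24 measured genes of endothelin receptor signalling (of 36 listed) was called in any comparison. At an unadjusted p under 0.05 there was 1 gene in each comparison, all lower, or 4.17%, against 6.61%, 5.02% and 6.84% of all named genes. Among them were PRKCD, a protein kinase C, at -0.47 ± 0.17 (SE, n = 4 cows) in week 1 against week 0, where its 2 probe sets disagreed in sign, and GRK5, a receptor kinase, at -0.49 ± 0.20 in week 3 against week 0. The G protein subunit GNAI1 was second by p in week 1 against week 0, at 0.12 ± 0.061, and GNAI2 in week 3 against week 1, at 0.36 ± 0.19. The medians of the list were 0.0089, 0.013 and -0.010.

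Of the regulators of EDN1 transcription 16 of 20 were measured and none was called (limma). PPARG, a nuclear receptor that represses EDN1 in endothelium, was at 0.052, 0.46, 0.71 and 0.020 in week 1 against week 0 in cows 1 to 4, with a mean of 0.31 ± 0.11 (SE, n = 4 cows; unadjusted p of 0.0186, adjusted p of 0.763). In week 3 against week 1 it was at -0.35 ± 0.11 (unadjusted p of 0.00933, adjusted p of 0.770, lower in 3 of 4 cows). The part of PPARG in the values of EDN1 was not tested. SMAD4, the common partner of TGF-beta signalling, was at 0.15 ± 0.056 in week 1 and 0.15 ± 0.056 in week 3 against week 0. ARNT, the partner of the hypoxia factor, was at 0.35 ± 0.11 in week 3 against week 0, and TGFB1 at -0.17 ± 0.093 in week 3 against week 1. The list had 2, 2 and 1 genes at an unadjusted p under 0.05 (12.5%, 12.5% and 6.25%, against 6.61%, 5.02% and 6.84% of all named genes) and medians of 0.023, 0.036 and 0.022.

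Of the other cadherins and catenins 11 of 21 were measured, and no gene was called or had an unadjusted p under 0.05 in any comparison (limma), while CDH13 was at -0.66 and -0.75 against week 0. The smallest p-values in week 1 against week 0 belonged to CTNNB1, beta-catenin, at 0.12 ± 0.070 (SE, n = 4 cows) and CTNNA1, alpha-catenin, at -0.10 ± 0.085. In week 3 against week 0 they belonged to CTNNA1 at -0.14 ± 0.085 and CDH3, P-cadherin, at 0.19 ± 0.17, and in week 3 against week 1 to CDH3 at 0.37 ± 0.17 and CDH2, N-cadherin, at -0.45 ± 0.45. The medians were 0.021, 0.017 and -0.0055. The desmosomal cadherins DSG1 and DSC1 were not among these genes. At weeks 0, 1 and 3 DSG1 had means of 1.05, 0.41 and -1.31. Those of DSC1, named after its values were seen, were 0.55, -0.067 and -0.039. CDH5 and CDH16, also named after their values were seen, were nearly flat, which does not show whether they were expressed. Whether CDH13 differs from the listed cadherins was not tested.

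Markers of the cell types that make these transcripts were followed beside them. The mean of the 15 measured endothelial markers (of 17) was 0.018 ± 0.069, -0.040 ± 0.085 and 0.013 ± 0.086 (SD, n = 4) at weeks 0, 1 and 3, with arrays from -0.049 to 0.11, -0.12 to 0.077 and -0.10 to 0.082, which overlap between weeks. The part of endothelial markers in the values of CDH13 was not tested. In week 1 and in week 3 against week 0, 9 of the 15 were higher and 6 lower, each time with a median of 0.014. In week 1 against week 0, PLVAP at -0.33 ± 0.12, SOX18 at -0.30 ± 0.11 and PECAM1 at -0.30 ± 0.12 (SE, n = 4 cows), PECAM1 named after its value was seen, had an unadjusted p under 0.05 and were lower (3 of 15 genes, against 6.61% of all named genes), and none did in week 3 against week 0, where TEK was at -0.35 ± 0.20 and FLT1 at 0.11 ± 0.068. From week 1 to week 3 PLVAP was at 0.26 ± 0.12 and PECAM1 at 0.27 ± 0.12. The 12 measured smooth muscle and pericyte markers (of 13) had means of 0.020 ± 0.16, 0.054 ± 0.081 and -0.013 ± 0.16 (SD, n = 4). Against week 0, 8 of the 12 were higher and 4 lower in week 1 and again in week 3, with medians of 0.041 and 0.036. Among them DES, desmin, was at -0.92 ± 0.31 in week 1 and -0.97 ± 0.31 in week 3 against week 0. It was lower in 4 of 4 cows each time, as were 3.39% and 4.63% of all probe sets. PDGFRB was at 0.25 ± 0.10 in week 1 and CNN1 at -0.50 ± 0.22 in week 3 against week 0. CSPG4 and PDGFRB were at -0.45 ± 0.20 and -0.20 ± 0.10 in week 3 against week 1.

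The means over the epithelial marker lists, though not each of their genes, were highest on forage. The 6 measured basal epithelial markers (of 11) had a mean of 0.30 ± 0.14 (SD, n = 4) on forage, with arrays from 0.091 to 0.41, against -0.096 ± 0.27 in week 1, from -0.34 to 0.28, and -0.10 ± 0.16 in week 3, from -0.31 to 0.048. Over the 12 arrays this mean had an r of 0.85 with CDH13 and 0.59 with EDN1. LAMB3, 1 of the 6 markers, had the largest differences of them, at -0.94 in week 1 and -1.20 in week 3 against week 0. It was also among the 5 genes most like CDH13 over these arrays, so the r with CDH13 is not independent of that choice. All 6 were lower in week 1 and 5 of 6 in week 3 against week 0, with medians of -0.32 and -0.28, and KRT15 was at 0.045 ± 0.40 (SE, n = 4 cows) in week 3, named after its value was seen. At an unadjusted p under 0.05 there were 3 genes (50%) each time, against 6.61% and 5.02% of all named genes, and none was called (limma). KRT5, the basal keratin, was at -0.33 ± 0.11 in week 1, COL17A1, a hemidesmosome collagen, at -0.32 ± 0.12 in week 1 and -0.36 ± 0.12 in week 3, and the integrin ITGB4 at -0.53 ± 0.16 in week 3 (SE, n = 4 cows). From week 1 to week 3 KRT5 was at 0.17 ± 0.11, its 2 probe sets disagreeing in sign, and ITGB4 at -0.25 ± 0.16. The part of the basal markers in the values of CDH13 was not tested.

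The 8 measured suprabasal markers (of 14) had means of 0.26 ± 0.16, -0.21 ± 0.23 and -0.17 ± 0.10 (SD, n = 4), with arrays from 0.092 to 0.47, -0.50 to 0.023 and -0.29 to -0.071, so that each forage array was above each grain array in this mean as well. DSG1, 1 of the 8, had the widest values of them. It was at -0.28, 0.26, 2.20 and 2.04 in cows 1 to 4 on forage and at -2.52, -1.56, -1.16 and 0.0014 in week 3. Whether this separation, and the r values of the mean given below, hold without DSG1 was not tested. Not all genes of the list followed its mean. In week 1 against week 0, 6 of 8 were lower, with a median of -0.38. In week 3 against week 0, 5 were lower and 3 higher, with a median of -0.027, and TGM3 and, named after their values were seen, KRT10, KRT4 and GRHL1 had weekly means that were not highest on forage. The mean of the 8 had an r of 0.65 with EDN1 and 0.68 with CDH13, and their part in either was not tested. DMKN, secreted by differentiating keratinocytes, was at -1.79 ± 0.24 in week 1, -0.63 ± 0.24 in week 3 against week 0 and 1.16 ± 0.24 in week 3 against week 1 (SE, n = 4 cows; limma, adjusted p of 0.194, 0.901 and 0.548). The transglutaminase TGM3 was at -0.45 ± 0.18 in week 1 and 0.58 ± 0.18 from week 1 to week 3, and the desmosomal cadherin DSG1 at -2.37 ± 0.72 in week 3 against week 0.

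The other marker lists followed other courses. Means over fibroblast markers (10 of 11 measured) were -0.15 ± 0.25, -0.088 ± 0.27 and 0.21 ± 0.12 (SD, n = 4) at weeks 0, 1 and 3. In week 1 against week 0, 4 fibroblast markers were higher and 6 lower, with a median of -0.073, and in week 3 against week 0, 9 were higher and 1 lower, with a median of 0.21. DCN, decorin, named after its value was seen, was at -0.65 ± 0.28 (SE, n = 4 cows) in week 1. It was lower in 4 of 4 cows, as were 3.39% of all probe sets. The collagen genes COL3A1 and COL1A1 were at 0.54 ± 0.13 and 0.67 ± 0.19 (SE, n = 4 cows) in week 1, COL3A1 and COL1A2 at 0.83 ± 0.13 and 1.17 ± 0.20 in week 3 against week 0, and LUM and COL3A1 at 0.34 ± 0.14 and 0.29 ± 0.13 in week 3 against week 1. Leukocyte markers (9 of 10) had means of 0.017 ± 0.47, -0.11 ± 0.29 and 0.33 ± 0.42 (SD, n = 4) and median differences of -0.33 in week 1 and 0.29 in week 3 against week 0, with CD3D at 1.12 ± 0.48 and CSF1R at -0.38 ± 0.24 in week 1, CD14 at 1.10 ± 0.46 and CD3D at 0.65 ± 0.48 in week 3 against week 0, and CD14 and CSF1R at 1.43 ± 0.46 and 0.67 ± 0.24 in week 3 against week 1. Of the 9 leukocyte markers, 3 were higher and 6 lower in week 1 against week 0. In week 3, 8 were higher and 1 lower against week 0, and 6 higher and 3 lower against week 1. CD3E, named after its values were seen, had weekly means of 0.17, -0.29 and 0.49, so that CD3D and CD3E differed in sign in week 1. For mast cells 3 of 7 markers were measured, with means of 0.037 ± 0.35, 0.015 ± 0.40 and 0.022 ± 0.35. HDC and FCER1A were at 0.033 ± 0.090 and -0.095 ± 0.71 in week 1, and HDC and KIT at 0.15 ± 0.090 and 0.068 ± 0.062 in week 3 against week 0 and at 0.11 ± 0.090 and 0.072 ± 0.062 in week 3 against week 1. Probe sets of FCER1A disagreed in sign in week 1 against week 0, and those of KIT in week 3 against week 1.

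Melanocytes and Schwann cells, which come from the neural crest and carry EDNRB, had 7 of 10 markers measured, with means of -0.036 ± 0.059, 0.022 ± 0.090 and -0.0010 ± 0.019 (SD, n = 4). Their mean over the 12 arrays had an r of 0.59 with EDNRB and 0.85 with EDNRA. No gene of the list had an unadjusted p under 0.05. SOX10 and MITF were at 0.18 ± 0.13 and 0.022 ± 0.026 (SE, n = 4 cows) in week 1, S100B and MITF at 0.14 ± 0.22 and 0.015 ± 0.026 in week 3 against week 0, and SOX10 and TYR at -0.14 ± 0.13 and -0.0082 ± 0.030 in week 3 against week 1. Like EDNRA, most of these probe sets were nearly flat. TYR, MITF and, named after their values were seen, TYRP1, DCT and PMEL were lowest in week 1 of cow 1 and highest in week 1 of cow 2. These were also the arrays of the lowest and the highest median, and EDNRA had an r of 0.78 with the array median. SOX10 was at 0.64 in week 1 of cow 4, and S100B ranged from -0.63 to 0.55. The part of these markers, or of the array median, in the values of the receptors was not tested.

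**Figure D5:**
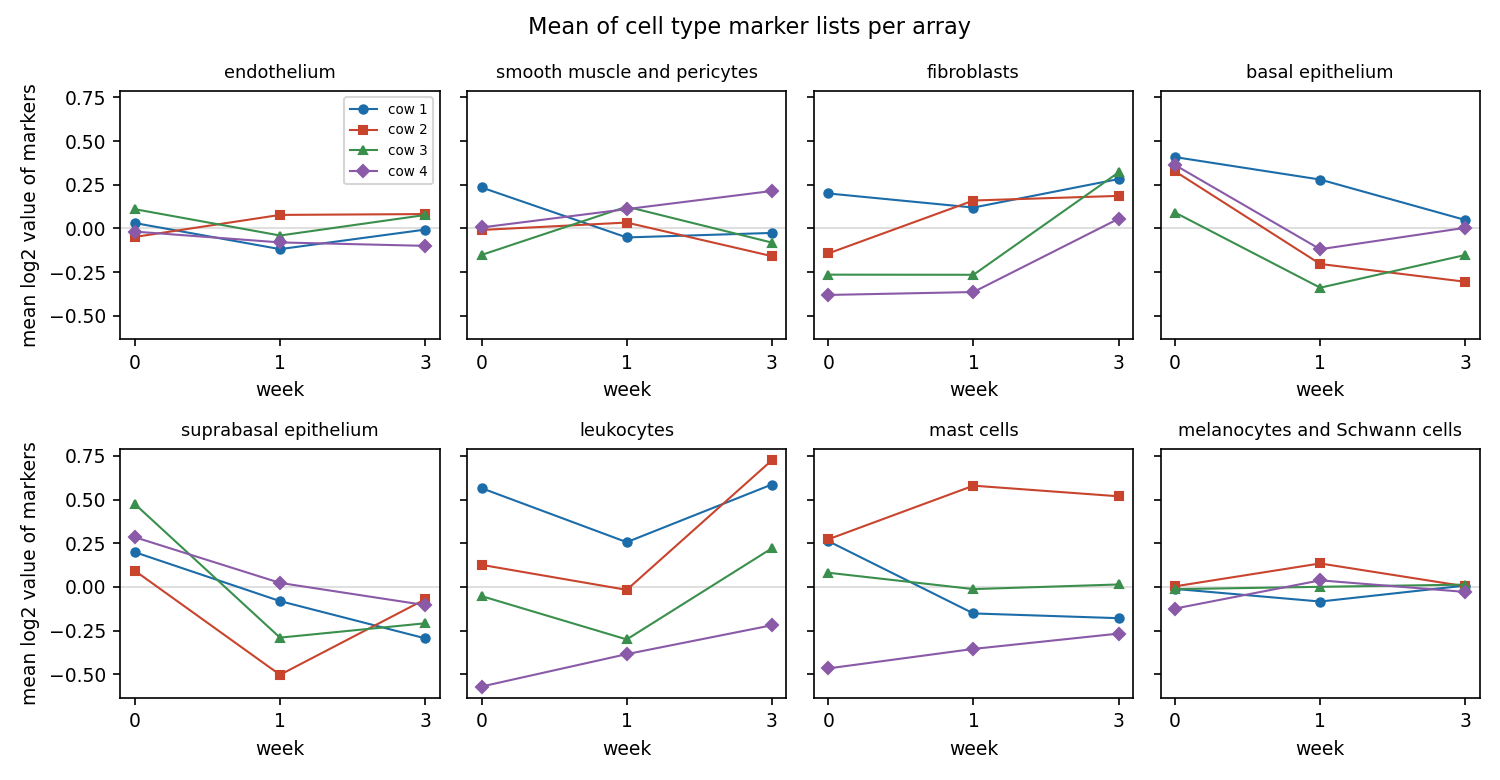
Mean log2 value of each cell type marker list on each array, by week (evenly spaced) and cow. The basal and suprabasal means are highest on forage in each cow, with DSG1 having the widest values of the suprabasal list. The mean of the endothelial list stays between -0.12 and 0.11, though single markers vary more, such as EMCN from -0.90 to 0.82.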

How the data were processed

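Rumen papillae RNA of 12 samples was hybridised to Affymetrix bovine arrays. Deposited were log2 values made with GCRMA, per the submitters' processing notes (version not given in the sources used here). Each probe set had a median of 0 over the 12 arrays, which was tested on the table. The log base is not stated: it was taken as 2, since the widest range within a probe set, 11.2, read as a natural log gives a 74399-fold ratio and a scanner has 65535 levels. Log2 values were fitted with limma 3.58.1 in R 4.3.3 (lmFit and eBayes, two-sided, a mean per week, no term for the cow), with Benjamini-Hochberg adjustment over 24016 probe sets and calls at an adjusted p under 0.05. The 112 AFFX controls were left out.

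Of the probe sets 13292 named 1 gene, 86 several and 10638 none. A gene with several was represented by the one of largest SD, and 13263 were matched to the ARS-UCD2.0 gene table for current symbols. Cow numbers pair the samples, being the same animals: deviations from weekly means correlated at 0.32 to 0.69 for arrays of the same cow and at -0.44 to 0.063 for different cows. The replicates are separate animals. The 4 members and the 6 pathway and 8 marker lists (162 of 228 genes measured) were chosen with earlier results of these data known. Named were the members, all measured genes of the ligand and processing list and the T-cadherin list, of each other list the 2 genes of smallest unadjusted p in a comparison, and the 5 genes most like each member. A result of 1 gene that this rule names is not reported here. Fits were checked on simulated data. The 24 other settings, 1 of them chosen after seeing the data, covered the cow as a block, scaling, array weights, a filter on SD and arrays left out. A filter on level was not possible on centred values. No sequences or coordinates are given, as no genome or sequence table was used.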

Additional observations from a re-analysis of the deposited data

Results flagged for a closer look

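EDN1 in cow 2 stood apart from the other cows at week 0, at -1.26 with the nearest other cow at 1.03, a gap that takes up 0.950 of the range of the 4 arrays. At week 3 it stood apart again, at -2.94 with the nearest at -0.45 and a share of 0.834. Dixon's critical value for 4 samples, computed for normal values, was 0.83. Of 12 groups looked at, which were 4 genes at 3 weeks, these 2 were past it. Chance passes about 1 independent group in 20, a rate that does not hold here, since the groups share the same 4 cows and the genes were chosen with these values known, so the shares are a description. At week 1 the share for cow 2 was 0.722, below the critical value, with cow 2 at -2.91 and the nearest cow at -0.60.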

How the results depend on the processing

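EDN1 and CDH13 kept their negative sign against week 0 in all 24 other settings run, in both comparisons, and EDNRA (23 settings, as its SD was under the filter) and EDNRB their positive one. Between weeks 1 and 3 all 4 changed sign in some settings. EDN1 in week 1 against week 0 ranged from -1.85 to -0.55 without 1 array or cow and was -2.23 without the 3 arrays whose hybridization controls were high. In week 3 against week 0 it ranged from -1.93 to -0.65, and was -1.96 without these 3 arrays and -1.72 with array weights. In week 3 against week 1 it ranged from -0.80 to 0.62. Over all settings EDNRA ranged from 0.0051 to 0.079 and EDNRB from 0.017 to 0.31 in week 1 against week 0. Leaving out the 3 arrays takes away 1 array of cow 2 and 2 of cow 1, and with the cow kept as a block as well, a setting chosen after seeing the data, EDN1 was at -1.29 and -1.16 and CDH13 at -0.77 and -0.81 in weeks 1 and 3 against week 0.

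Probe sets called, 0 in every comparison, were 2, 0 and 0 with the cow as a replicate block (1 in the F test over the 3 weeks), and the block called no member. With the cow as a random replicate block 1 was called in week 1 against week 0. Quantile normalization gave 2 in week 3 against week 0, and the filter on SD 2 in week 1 against week 0. Array weights gave 9970, 7 and 97 calls in week 1 against 0, week 3 against 0 and week 3 against 1, and 6112 in the F test. CDH13 was then called in week 1 against week 0, as were 41.5% of all probe sets and 29 of the 94 pathway genes. With the 3 arrays of cows 1 and 2 whose hybridization controls were high left out, the calls were 5, 6 and 12, with 8 in the F test, and with the block added 1 in week 1 against week 0. Leaving out 1 array or cow gave 0 to 45, 0 to 2 and 0 to 38 calls, 0 to 28 in the F test, and 0 to 1 pathway genes in week 3 against week 1. That one was NFKB1, at 0.63, without week 1 of cow 1, the array whose absence also gave the 45, 38 and 28, and it was named after its value was seen. The 2 in week 3 against week 0 came without week 3 of cow 1. The cause of these changes was not tested. Of 1050 list medians under other settings 118 had another sign. Values centred per probe set limit all of this to differences, and 4 arrays a week limit their precision.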

Other observations

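Other systems that set vessel tone were followed for comparison, and 26 of 36 listed genes were measured. None was called (limma), and 2, 1 and 2 had an unadjusted p under 0.05 in week 1 against 0, week 3 against 0 and week 3 against 1. These were 7.69%, 3.85% and 7.69% of the list, close to the 6.61%, 5.02% and 6.84% of all named genes. The medians were 0.035, 0.028 and -0.012. ADM, adrenomedullin, a vasodilator peptide, was at -0.087, 0.19, -0.15 and -0.21 in cows 1 to 4 on forage, at 0.12, 0.91, 0.25 and 0.43 in week 1 and at -0.0070, -0.21, 0.0070 and -0.13 in week 3. It was higher in week 1 than in week 0 in all 4 cows (as 6.91% of all probe sets were), by 0.50 ± 0.15 (SE, n = 4 cows; unadjusted p of 0.00899, adjusted p of 0.763, limma). It was lower in week 3 than in week 1 in all 4 (as 4.59% of all probe sets were), at a mean of -0.51 ± 0.15 (limma, unadjusted p of 0.00732, adjusted p of 0.717). VEGFA, the endothelial growth factor, was at 0.31 ± 0.13 in week 1 against week 0.

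KNG1, the precursor of the vasodilator bradykinin, was at 0.029, 0.096, -0.60 and -0.97 on forage and at 1.08, 3.05, 0.16 and 0.40 in week 3. It was higher in week 3 than on forage in all 4 cows, as were 36.3% of all probe sets, by 1.54 ± 0.58 (SE, n = 4 cows; unadjusted p of 0.0238, adjusted p of 0.901, limma). Against week 1 KNG1 was higher by 1.61 ± 0.58 (limma, unadjusted p of 0.0193, adjusted p of 0.871), where 1 of its 2 probe sets had the opposite sign. AGT, angiotensinogen, was at 0.25 ± 0.14 in week 3 against week 0.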
